A study of Dicentrarchus labrax with 30 samples.

Results

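The difference between bold and shy European sea bass (Dicentrarchus labrax) was compared between the pituitary and the head kidney. The members are the 10 pituitary and 10 head kidney RNA-seq libraries of a series of 30, chosen by their tissue label. Each tissue has 5 libraries of bold fish (2 females and 3 males) and 5 of shy fish (3 females and 2 males). Bold fish left a shelter with a consistently low latency, and shy fish never left it or did so with an extremely high latency. Behavior was scored in 4 tests over 7 months, and the first 3 were used to choose the fish, which were sampled at 478 days after fertilization. The labels name no strain, drug or genotype, and both tissues were taken from the same 10 fish. They do not tie a pituitary to a head kidney, so libraries were treated as independent. Libraries are numbered within a group and tissue in the order listed, and bold 1 of one tissue need not be the fish of bold 1 in the other.

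The pituitary of a teleost is the gland that releases corticotropin, thyrotropin, growth hormone, prolactin and gonadotropins under the control of the hypothalamus. The head kidney is the main blood-forming organ of bony fish, and it also holds the interrenal cells, which make cortisol when corticotropin reaches them. Both organs therefore belong to the stress axis, and cortisol acts in both through the glucocorticoid receptor, which switches on genes such as FKBP5, KLF9 and PER1. Many of the same genes are also under the control of the circadian clock, a loop in which CLOCK and its partner drive the PER, CRY and REV-ERB genes that then repress it.

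The tissue labels fit the defining markers. The thyrotropin beta gene TSHB (DLAgn_00096090) averaged 2777 CPM, counts scaled to library size, in pituitary and 0.0422 CPM in head kidney, and the pituitary factor PITX1 averaged 220.4 CPM and 0.00628 CPM. STAR (DLAgn_00115570), which feeds cholesterol into steroid synthesis, averaged 0.044 CPM in pituitary and 208 CPM in head kidney, and the neutrophil peroxidase MPX (DLAgn_00085240) averaged 1.01 CPM and 1458 CPM. Total counts ran from 5323694 to 12550808 in pituitary of bold fish, from 3808645 to 9083418 in pituitary of shy fish, from 7953326 to 20309562 in head kidney of bold fish and from 4667992 to 26837997 in head kidney of shy fish. The pituitary libraries shy 1 and shy 2, both of males, stood apart from the other 8. Ribosomal protein genes took 3.01% and 1.87% of their counts, against 3.97% to 5.49% in the others.

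Few bold minus shy differences passed the adjusted test in edgeR, and fewer than in DESeq2. In edgeR's quasi-likelihood test with sex as covariate, 0 of 17102 genes passed an adjusted p of 0.05 in pituitary (0%, smallest adjusted p 0.112) and 1 of 15741 passed in head kidney (0.00635%). DESeq2 called 719 genes in pituitary (4.2%) and 134 in head kidney (0.851%). The comparison of the tissues used the 13983 genes tested in both. The test of the tissue by behavior interaction, which asks whether the difference is of another size or sign in pituitary than in head kidney, passed for 0 genes in edgeR (0%, smallest adjusted p 0.206). At an unadjusted p under 0.05 it held 1922 genes (13.7%), and DESeq2 called 18 (0.129%). A difference of the same sign in both tissues passed for 0 genes in edgeR (0%, smallest adjusted p 1) and for 6 in DESeq2 (0.0429%). A difference of opposite sign passed for 0 genes in edgeR (0%, smallest adjusted p 1) and for 0 in DESeq2. Apart from the 1 head kidney gene, every gene below is therefore described by its values.

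At an unadjusted p under 0.05, 2405 of the 13983 genes differed in pituitary (17.2%) and 1568 in head kidney (11.2%). Both conditions held for 331 genes, which are 13.8% of the pituitary genes and 21.1% of the head kidney genes. Of these, 176 were higher in bold fish in both tissues (1.26%) and 81 lower in both (0.579%). Another 45 were higher in pituitary and lower in head kidney of bold fish (0.322%), and 29 the other way round (0.207%). Over all genes, 7358 had the same sign in both tissues (52.6%). Pearson's r of the log2 differences across genes was 0.167 and Spearman's rho 0.105. Both tissues come from the same fish, so any other difference between the bold and the shy fish can enter both tissues. Agreement between the tissues, here and below, is therefore not independent support for a link with behavior. Over the 7511 genes with a mean of at least 10 CPM in both, r was 0.0367. Pituitary shy 1 and shy 2 are the only shy males. Without them, and with sex in the model, pituitary bold minus shy compares 2 bold females with 3 shy females. Here and below, that setting also takes the 3 bold males out of the difference and leaves fewer libraries to test. In that setting r was 0.314. The genes at an unadjusted p under 0.05 in both tissues with opposite signs then numbered 7 in place of 74.

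**Figure D1:**
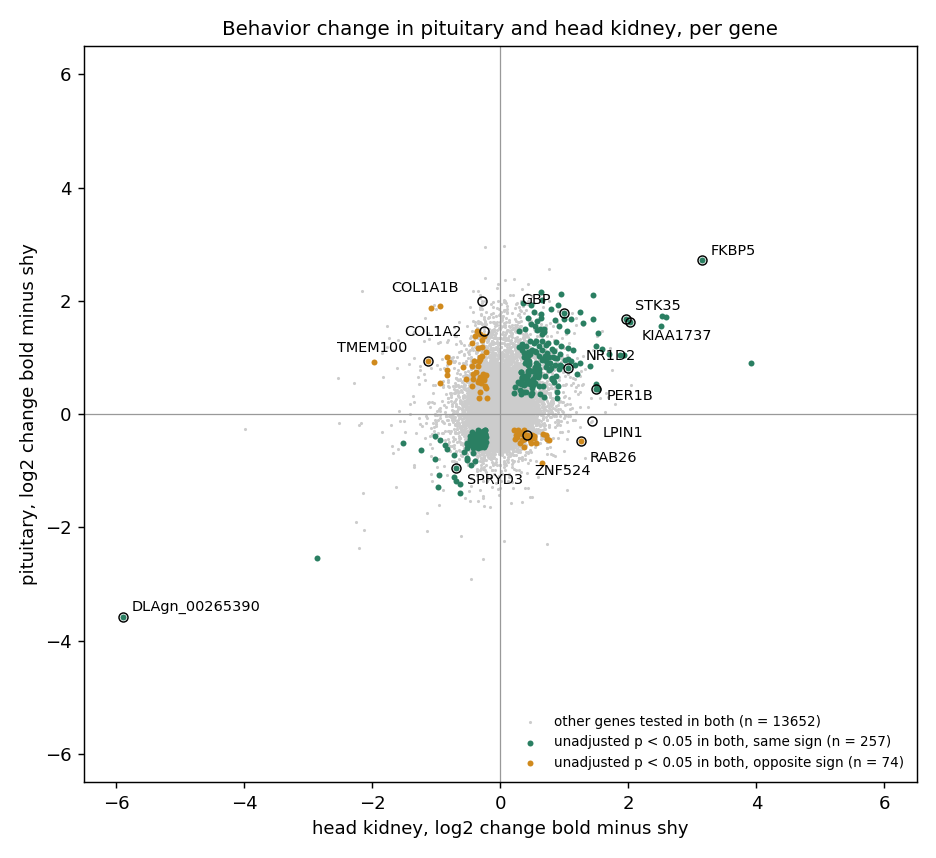
Each point is a gene tested in both tissues. The vertical axis gives the pituitary and the horizontal axis the head kidney log2 difference, bold minus shy. Green marks the 257 genes of the same sign and orange the 74 of opposite sign at an unadjusted p under 0.05 in both tissues; circles mark named genes, with FKBP5 and DLAgn_00265390 farthest from the centre.

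Several genes with a positive difference in both tissues belong to the clock and the glucocorticoid response. KIAA1737, an older symbol of CIPC, an inhibitor of CLOCK known from mammals, had 76.2, 48.4, 78.2, 31.6 and 63.9 CPM in pituitary of bold fish, against 23.2, 22.2, 17.2, 15.3 and 15.3 CPM in pituitary of shy fish. Its head kidney values were 75.6, 41.9, 73.4, 23.1 and 53.9 CPM in bold fish, against 12.2, 9.72, 19.4, 13 and 12 CPM in shy fish. Every library of a bold fish lay above every library of a shy fish in both tissues. On the log2 scale bold minus shy was 1.63 (SE 0.23) in pituitary and 2.03 (SE 0.34) in head kidney, with adjusted p of 0.112 and 0.177 in edgeR. NR1D2 (DLAgn_00056300), which encodes the clock repressor REV-ERB beta, had 187, 147, 142, 123 and 165 CPM in pituitary of bold fish, against 74.6, 72.8, 81, 97.1 and 127 CPM in pituitary of shy fish. Head kidney held 93.4, 61.7, 81.7, 56.4 and 80.4 CPM in bold fish, against 37.2, 21.1, 40.9, 40.9 and 49.7 CPM in shy fish. The groups were apart in head kidney and overlapped in pituitary, where bold 4 lay below shy 5. Its log2 difference was 0.82 (SE 0.16) in pituitary and 1.06 (SE 0.21) in head kidney.

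FKBP5, a co-chaperone that glucocorticoids induce and that lowers the affinity of their receptor, had a positive difference in both tissues. Pituitary held 438, 237, 623, 160.3 and 434 CPM in bold fish, against 40.9, 43.1, 156, 23.1 and 32 CPM in shy fish. Head kidney held 416, 206, 669, 115 and 391 CPM in bold fish, against 25, 15.3, 136, 25.2 and 36.1 CPM in shy fish. The groups were apart in pituitary by a narrow gap and overlapped in head kidney, where 1 shy library, at 136 CPM, lay above the lowest bold one. Its log2 difference was 2.72 (SE 0.66) in pituitary and 3.14 (SE 0.83) in head kidney. The difference between tissues, pituitary minus head kidney from 1 joint fit of all 20 libraries, was -0.42 (SE 1.07). It need not equal the gap between the separate fits. With an SE this wide, it does not show that the amounts are alike.

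The other genes named for the glucocorticoid response mostly had the same sign. They were chosen with earlier results of these data known. KLF9, a transcription factor, had log2 differences of 0.98 in pituitary and 0.86 in head kidney, CEBPD 1.86 and 0.79, and DDIT4, an inhibitor of mTOR signalling, 0.53 and 1.29. Several symbols stand for more than 1 gene identifier, and reads of near-identical copies cannot be assigned with certainty. SGK1 gave 0.51 in pituitary and 1.21 in head kidney for DLAgn_00203920, and 0.01 and 0.14 for DLAgn_00069000. TSC22D3 (GILZ) gave 0.38 and 0.88 for DLAgn_00108490, and 1.02 and 0.85 for DLAgn_00108510. The receptor itself, NR3C1, gave -0.38 in pituitary and 0.14 in head kidney for DLAgn_00045010, and 0.11 and 0.82 for DLAgn_00110340. None of these passed the adjusted test in either tissue. Without pituitary shy 1 and shy 2 the pituitary difference was 1.09 for CEBPD, 0.04 for DDIT4, 0.96 for SGK1 (DLAgn_00203920), 0.32 for TSC22D3 (DLAgn_00108510) and -0.01 for NR3C1 (DLAgn_00045010).

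Taken as a list, glucocorticoid-responsive genes leaned to higher levels in bold fish in both tissues. This list and those below were chosen with earlier results of these data known, so their counts are descriptions. Of 44 members tested, 35 had a positive difference in pituitary (median 0.47) and 37 in head kidney (median 0.44). The median over all 13983 genes was -0.02 in both tissues, with 6660 positive in pituitary and 6613 in head kidney. At an unadjusted p under 0.05, 16 members were higher in pituitary of bold fish (8.85% of all genes) and 2 lower, and 18 were higher in head kidney (5.65% of all genes) and 0 lower. Both held for 10 members (1.26% of all genes). Here and below, a share of all genes in brackets beside a list count is that of the 13983 genes meeting the same condition. The interaction at an unadjusted p under 0.05 gave 2 members with a more positive value in pituitary (8.12% of all genes) and 2 with a more negative one (5.62%). The pituitary score of the list, the mean deviation of its members from the tissue mean on the log2 scale, was 0.42, -0.02, 0.25, 0.01 and 0.49 in bold fish, against -0.31, -0.34, -0.25, -0.07 and -0.17 in shy fish. In head kidney it was 0.45, -0.02, 0.37, -0.05 and 0.40 in bold fish, against -0.24, -0.51, -0.20, -0.06 and -0.14 in shy fish. The groups did not meet in either tissue, though the gap was narrow in both. Without pituitary shy 1 and shy 2 the pituitary median was 0.32, and 7 of 46 members then tested were higher in pituitary of bold fish at an unadjusted p under 0.05. The share of all genes at that p was not counted in that setting, so the 7 cannot be set against it.

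**Figure D2:**
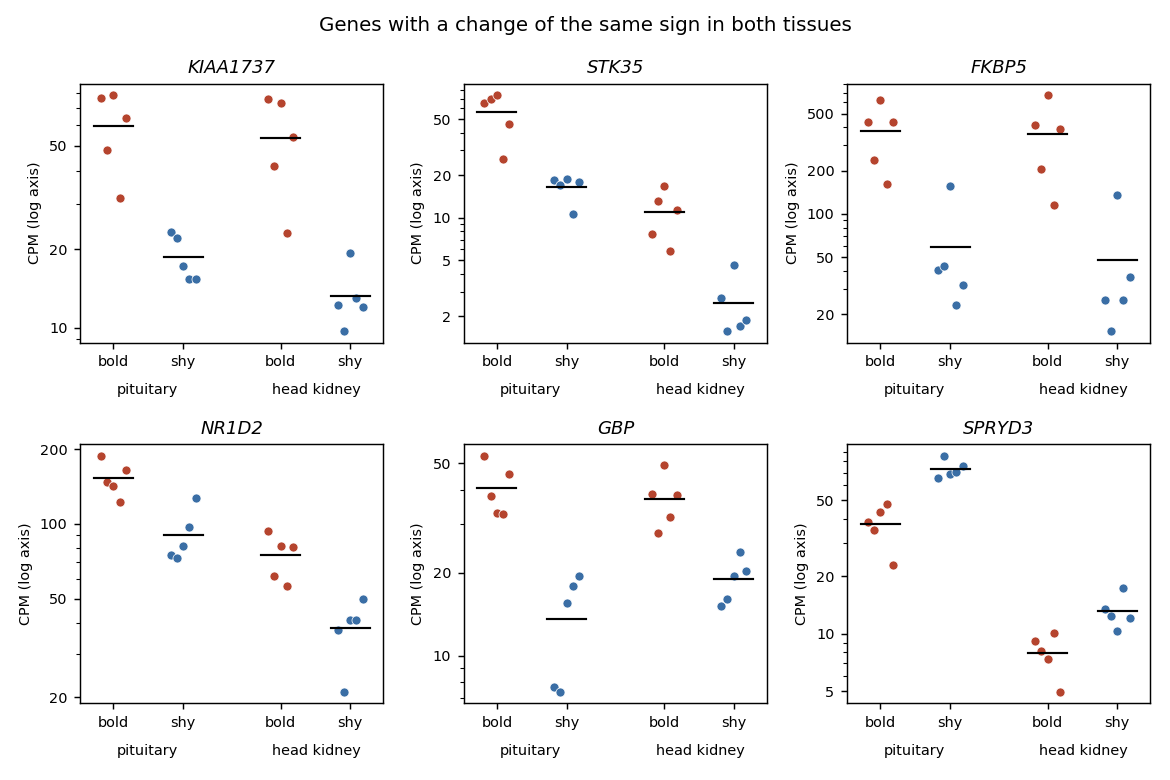
CPM on a log axis for 6 genes whose difference had the same sign in both tissues; each point is a library, bold left of shy, and the line is the group mean. SPRYD3 is lower in bold fish in both tissues and the other 5 are higher.

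Genes with non-overlapping groups in both tissues were few. There were 7 higher in bold fish (0.0501%) and 2 lower (0.0143%), against 307 genes with groups apart in pituitary (2.2%) and 417 in head kidney (2.98%). By direction, 115 were higher and 192 lower in pituitary of bold fish, and 210 higher and 207 lower in head kidney. How many genes unrelated tissues would share was not tested, so the 2 lower ones are given by value only. The 7 higher in both tissues were KIAA1737, STK35, GBP, NRP1A, MEA1, DGKD and SSH1. STK35, a serine/threonine kinase found in the nucleus, had 64.8, 69, 73.6, 26.2 and 46.3 CPM in pituitary of bold fish, against 18.4, 17.1, 19, 10.6 and 17.9 CPM in pituitary of shy fish. Its head kidney values were 7.69, 13.1, 16.8, 5.83 and 11.3 CPM in bold fish, against 2.71, 1.58, 4.63, 1.73 and 1.9 CPM in shy fish. Shy 4 was the lowest pituitary library, and the groups did not meet in either tissue. For STK35 the log2 difference was 1.68 (SE 0.26) in pituitary and 1.96 (SE 0.37) in head kidney. GBP is a symbol used for guanylate-binding proteins, and in fish also for a binding protein of glycogen synthase kinase, and the count table does not say which. It had 53.1, 38.1, 33, 32.8 and 45.9 CPM in pituitary of bold fish, against 7.66, 7.4, 15.6, 18 and 19.5 CPM in pituitary of shy fish, and 38.6, 27.9, 49.4, 31.8 and 38.5 CPM in head kidney of bold fish, against 15.1, 16.1, 19.4, 23.8 and 20.4 CPM in head kidney of shy fish. All bold libraries were above all shy libraries, with shy 1 and shy 2 lowest in pituitary, and the log2 difference was 1.79 (SE 0.24) in pituitary and 1.00 (SE 0.17) in head kidney.

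NRP1A, a neuropilin, a co-receptor of semaphorins and vascular endothelial growth factor, had 12.3, 9.01, 4.32, 4.62 and 7.89 CPM in pituitary of bold fish, against 2.3, 2.54, 1.91, 2.32 and 3.1 CPM in pituitary of shy fish. Head kidney levels were low, with 2.08, 0.984, 0.966, 1.13 and 1.04 CPM in bold fish, against 0.451, 0.422, 0.772, 0.534 and 0.253 CPM in shy fish. Bold 1 stood above the other head kidney libraries of bold fish, and the log2 difference was 1.67 (SE 0.35) in pituitary and 1.45 (SE 0.38) in head kidney. DGKD, a diacylglycerol kinase, had 10.8, 9.44, 8.9, 7.71 and 7.14 CPM in pituitary of bold fish, against 3.07, 2.01, 6.32, 6.5 and 6.33 CPM in pituitary of shy fish, and 4.39, 3.73, 3.15, 4.53 and 4.22 CPM in head kidney of bold fish, against 1.58, 2.53, 2.8, 2.89 and 1.52 CPM in head kidney of shy fish. Its pituitary difference was 1.11, and 0.56 without shy 1 and shy 2, its lowest libraries. MEA1 ran from 85.2 to 129.8 CPM in pituitary of bold fish, against 40.2 to 81.9 CPM in pituitary of shy fish, and from 39.5 to 44.4 CPM in head kidney of bold fish, against 22.1 to 39.4 CPM in head kidney of shy fish. Its pituitary difference of 0.81 was 0.19 without shy 1 and shy 2. SSH1, a phosphatase that activates the actin-severing protein cofilin, ran from 125 to 248 CPM in pituitary of bold fish, against 70.2 to 90.7 CPM in pituitary of shy fish. Its head kidney range was 16.9 to 20.6 CPM in bold fish, against 11.7 to 16.1 CPM in shy fish. SSH1 had a log2 difference of 1.18 in pituitary and 0.29 in head kidney. SSH1 and, among the lower genes, RER1 were named for their non-overlapping groups after their values were seen. Others near the top of the shared list were PRR18 (1.72 in pituitary and 2.59 in head kidney), RALGPS2 (0.86 and 0.93) and ZRANB1, a deubiquitinase (0.78 and 0.76). Without shy 1 and shy 2 the pituitary difference was 0.56 for RALGPS2 and 0.38 for ZRANB1.

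Lower in bold fish in both tissues were SPRYD3 and RER1, again with groups that did not meet. SPRYD3 had 38.7, 35.2, 43.4, 48 and 22.8 CPM in pituitary of bold fish, against 65.4, 85.3, 68.5, 70.2 and 75.8 CPM in pituitary of shy fish, and 9.16, 8.13, 7.37, 10.1 and 4.98 CPM in head kidney of bold fish, against 13.5, 12.5, 10.3, 17.4 and 12.2 CPM in head kidney of shy fish. The highest bold library lay below the lowest shy one in each tissue, and the log2 difference was -0.95 (SE 0.18) in pituitary and -0.70 (SE 0.19) in head kidney. RER1, which returns proteins to the endoplasmic reticulum, ran from 73.8 to 84.1 CPM in pituitary of bold fish, against 91.9 to 122 CPM in pituitary of shy fish, and from 35 to 38.1 CPM in head kidney of bold fish, against 38.8 to 43.2 CPM in head kidney of shy fish. DLAgn_00265390, which has no symbol in the count table, had 0.0786, 0.436, 0.124, 2.31 and 0.924 CPM in pituitary of bold fish, against 13, 13.8, 7.21, 1.39 and 6.73 CPM in pituitary of shy fish. Head kidney held 0, 0.0518, 0.203, 0.0566 and 0.0474 CPM in bold fish, against 6.32, 4.22, 6.76, 0.596 and 6.52 CPM in shy fish. Bold 4 and shy 4 overlapped in pituitary, while the head kidney groups were apart, with 1 bold library at 0. The log2 difference was -3.58 (SE 0.81) in pituitary, -2.31 there without shy 1 and shy 2, and -5.89 (SE 0.80) in head kidney. DUT, which removes dUTP from the nucleotide pool, had -0.52 in pituitary and -0.52 in head kidney, and RRM2B, a ribonucleotide reductase subunit, -0.48 and -0.33.

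Some clock genes differed more in head kidney than in pituitary by value, although no interaction passed. PER1B, a period gene of the clock's negative arm that glucocorticoids also induce, had 132, 184, 149.6, 167 and 118 CPM in pituitary of bold fish, against 137, 97.1, 103, 107 and 104 CPM in pituitary of shy fish. Head kidney held 82.3, 88, 97, 59.3 and 58.5 CPM in bold fish, against 24.8, 22.4, 48.7, 16 and 26.9 CPM in shy fish. The groups were apart in head kidney and met in pituitary, where shy 1 was above 2 bold libraries. Its log2 difference was 0.43 (SE 0.15) in pituitary and 1.49 (SE 0.30) in head kidney, a difference between tissues of -1.04 (SE 0.34) with adjusted p = 0.315 in edgeR. TEFA (DLAgn_00187840), a PAR bZIP factor driven by the clock, had 138, 188, 166, 131 and 127 CPM in pituitary of bold fish, against 113, 169.8, 97.5, 64.3 and 85.2 CPM in pituitary of shy fish, and 50.1, 62.3, 93.6, 53.3 and 49 CPM in head kidney of bold fish, against 18.5, 18.5, 37.4, 14.8 and 16.1 CPM in head kidney of shy fish. Again the head kidney groups were apart and the pituitary groups were not. The log2 difference was 0.44 in pituitary and 1.52 in head kidney, and for the other copy, DLAgn_00098990, -0.02 and 0.74. HLF (DLAgn_00059510), of the same family, ran from 120.3 to 152 CPM in pituitary of bold fish, against 84.7 to 125 CPM in pituitary of shy fish, and from 22.1 to 30.3 CPM in head kidney of bold fish, against 12.4 to 16.8 CPM in head kidney of shy fish. For this copy the log2 difference was 0.29 in pituitary and 0.89 in head kidney, and the remaining HLF identifiers gave -0.12 in pituitary and 0.91 in head kidney (DLAgn_00106080), 0.14 and 0.55 (DLAgn_00194210), and -0.19 and 0.09 (DLAgn_00196960). In pituitary, DLAgn_00106080 had 275 CPM in shy 2, against 122 to 145 CPM in the other shy libraries. Bold pituitaries held 143 to 161 CPM.

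Over the 36 clock genes tested, 14 had a positive difference in pituitary (median -0.08) and 24 in head kidney (median 0.10). In head kidney, 8 were higher in bold fish at an unadjusted p under 0.05 (5.65% of all genes) and 0 lower, and 5 were higher in both tissues (1.26% of all genes). The interaction at an unadjusted p under 0.05 gave 6 members with a more negative value in pituitary (5.62% of all genes) and 0 with a more positive one. The head kidney score was 0.16, 0.06, 0.22, 0.05 and 0.21 in bold fish, against -0.20, -0.11, -0.10, -0.17 and -0.13 in shy fish, with no overlap. In pituitary it was 0.12, 0.02, -0.06, 0.01 and -0.01 in bold fish, against 0.07, 0.22, -0.14, -0.21 and -0.01 in shy fish, and shy 2 was the highest of all. Without pituitary shy 1 and shy 2, 27 of the 36 were positive in pituitary (median 0.14), and 1 member had an interaction at an unadjusted p under 0.05. Of all 14192 genes tested in that setting, 464 had one at that p. The pituitary difference was then 0.72 for TEFA (DLAgn_00187840) and 0.47 for HLF (DLAgn_00059510). The part of those libraries in the tissue difference was not tested further.

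Immediate early genes, the first to be transcribed after a cell is stimulated, were mostly positive in both tissues. Of 48 tested, 38 were positive in pituitary (median 0.55) and 34 in head kidney (median 0.23). At an unadjusted p under 0.05, 16 were higher in pituitary of bold fish (8.85% of all genes) and 8 in head kidney (5.65% of all genes). The pituitary median was 0.37 without shy 1 and shy 2, and 4 were higher at that p, with the share of all genes not counted in that setting. The kinase SIK1 had 1.15 in pituitary and 1.59 in head kidney, and the nuclear receptor NR4A3 1.04 and 1.93. ATF3, a stress-induced transcription factor, had 2.56 and 0.76. FOS had 0.38 in pituitary and -0.51 in head kidney, and JUN 1.23 and 0.63 for DLAgn_00151860 and 0.34 and 0.17 for DLAgn_00002460. Without shy 1 and shy 2 the pituitary difference was 0.21 for FOS and 0.15 for JUN (DLAgn_00002460). The pituitary score ranged from -0.43 to 0.63 in bold fish, against -0.70 to 0.10 in shy fish, so the groups overlapped, as they did in head kidney.

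The collagen genes COL1A2 and COL1A1B gave the smallest interaction p values, with higher levels in pituitary of bold fish and values near 0, on the negative side, in head kidney. COL1A2, a chain of type I collagen, had 142, 155, 69.1, 113 and 102 CPM in pituitary of bold fish, against 40.9, 24.3, 43.5, 56.5 and 65.8 CPM in pituitary of shy fish. Head kidney held 35, 39.9, 28.5, 34 and 42.5 CPM in bold fish, against 51.7, 32.3, 38.1, 43.6 and 47.7 CPM in shy fish. The pituitary groups were apart, and the head kidney groups overlapped. This gave log2 differences of 1.47 (SE 0.24) in pituitary and -0.25 (SE 0.15) in head kidney. The joint fit gave a difference between tissues of 1.74 (SE 0.31), with adjusted p = 0.206 in edgeR and 5.3e-04 in DESeq2. Over leaving out each of the 20 libraries it ran from 1.55 to 1.87. In bulk tissue, more cells of a type and more RNA per cell cannot be told apart.

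COL1A1B had 159.8, 157, 53.1, 91.1 and 104 CPM in pituitary of bold fish, against 28.4, 10.8, 32.2, 46.2 and 46.9 CPM in pituitary of shy fish, and 31.1, 35, 23.2, 34.2 and 43.2 CPM in head kidney of bold fish, against 46.5, 40.4, 34.6, 37.7 and 41.5 CPM in head kidney of shy fish. COL1A1 had 147, 154, 58.9, 107 and 92.4 CPM in pituitary of bold fish, against 42.9, 12.6, 43.8, 53.1 and 55.1 CPM in pituitary of shy fish, and 23, 30.7, 16, 23.2 and 31.7 CPM in head kidney of bold fish, against 35, 23.9, 22.5, 37.4 and 33 CPM in head kidney of shy fish. Both had pituitary groups apart, with shy 2 lowest, and overlapping head kidney groups. The difference between tissues was 2.31 (SE 0.42) for COL1A1B and 1.93 (SE 0.44) for COL1A1. Without pituitary shy 1 and shy 2 it was 1.93 for COL1A1B and 1.67 for COL1A1. These are close copies of 1 collagen chain, so their counts may share reads.

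The wider matrix list followed the same pattern by value. Of 58 members, 45 were positive in pituitary (median 0.44) and 22 in head kidney (median -0.07), and 29 were positive in pituitary and negative in head kidney. The interaction at an unadjusted p under 0.05 gave 17 with a more positive value in pituitary (8.12% of all genes) and 0 with a more negative one. VCAN, a large proteoglycan, had -0.04 in pituitary and -1.17 in head kidney, and COL15A1B had 1.45 in head kidney. COL15A1B was also mostly higher in bold pituitaries, at 3.54, 3.92, 3.09, 0.578 and 3.28 CPM. Shy pituitaries held 0, 0, 2.06, 1.28 and 1.08 CPM, so its levels were low. The pituitary score was 0.57, 0.45, -0.10, -0.08 and 0.24 in bold fish, against -0.11, -0.25, -0.25, -0.19 and -0.27 in shy fish, and bold 1 was highest. Without bold 1 the pituitary median was 0.17, and without shy 1 and shy 2 it was 0.53. In the latter setting bold 1 and bold 4 are the only bold pituitaries in the difference, so the 0.53 leans more on bold 1. The summed level of 5 macrophage markers was 31.6 to 87.4 CPM in bold pituitaries, against 14.7 to 38.4 CPM in shy ones. These ranges overlap, and no marker was at 0 in any pituitary library. The pituitary score of the wider macrophage list was highest in bold 5, at 0.50, and was 0.06 in bold 1. The part of these markers in the result was not tested.

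Further genes with a more positive value in pituitary were of several kinds. COLEC12, a scavenger receptor, had a difference between tissues of 1.92, TFPIA, an inhibitor of the tissue factor pathway of clotting, 2.27, the protease CAPN5 1.05, ABCF2 0.75 and LMF2 0.63. PAWR, a pro-apoptotic regulator, entered through head kidney. It had 24.5, 20.0, 23.7, 21 and 22.8 CPM in pituitary of bold fish, against 19.2, 30.3, 17.8, 26 and 23 CPM in pituitary of shy fish, and 0.977, 0.984, 1.17, 0.849 and 1.09 CPM in head kidney of bold fish, against 3.61, 2.53, 1.93, 1.73 and 1.96 CPM in head kidney of shy fish. The head kidney groups were apart and the pituitary groups overlapped, with log2 differences of -0.07 (SE 0.17) in pituitary and -1.27 (SE 0.25) in head kidney. TPM1, a tropomyosin of muscle and other cells, had 0.33 in pituitary and -1.36 in head kidney, and TPM2 0.92 (0.55 without shy 1 and shy 2) and -1.98. Beside them, the summed level of 5 muscle markers in head kidney was 0 to 0.996 CPM in bold fish (median 0.736). It was 0.579 to 44.6 CPM in shy fish (median 1.48). TPM1 itself ran from 0.155 to 0.623 CPM in head kidney of bold fish, against 0.676 to 1.16 CPM in shy fish. MYLPFB was at 0 in all head kidney libraries, and the part of these markers in the result was not tested.

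On the other side stood genes that were higher in head kidney of bold fish with little or the reverse in pituitary. DLAgn_00202850, which has no symbol, rose in head kidney of bold fish, the one gene to pass there. It had 40.0, 28.3, 42.9, 25.7 and 38.8 CPM in head kidney of bold fish, against 12.9, 8.77, 13.2, 11.2 and 13.7 CPM in head kidney of shy fish, and 31.9, 31.5, 33.6, 20.4 and 33.5 CPM in pituitary of bold fish, against 31.2, 25.6, 19.1, 19.7 and 23.2 CPM in pituitary of shy fish. The head kidney groups were apart, and the pituitary groups overlapped. Its log2 difference was 0.28 (SE 0.15) in pituitary and 1.56 (SE 0.18) in head kidney, with adjusted p = 0.043 in edgeR for head kidney. The adjusted p was 0.0665 in the non-robust fit and 0.103 in voom. It was 0.0515 to 0.409 when head kidney bold 1, bold 2, bold 5, shy 1, shy 2, shy 4 or shy 5 was left out, and so the call was lost without any one of them. The difference between tissues was -1.26 (SE 0.25), with adjusted p = 0.211 in edgeR.

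LPIN1, a phosphatidate phosphatase of fat synthesis that also acts as a transcriptional co-activator in mammals, had 22.7, 26, 21.6, 19.7 and 21.8 CPM in pituitary of bold fish, against 17.4, 31.9, 18.5, 27.6 and 23.3 CPM in pituitary of shy fish. Head kidney held 4.88, 5.23, 5.54, 3.79 and 5.17 CPM in bold fish, against 0.902, 1.9, 2.61, 1.73 and 1.71 CPM in shy fish. The head kidney groups were apart, and in pituitary the bold libraries lay within the range of the shy ones. The log2 difference was -0.12 (SE 0.19) in pituitary and 1.43 (SE 0.26) in head kidney, and the difference between tissues -1.52 (SE 0.31), with adjusted p = 0.211 in edgeR. RAB26, a small GTPase of secretory vesicles, had 90.7, 102, 128, 121 and 107 CPM in pituitary of bold fish, against 168, 175, 174, 108 and 114 CPM in pituitary of shy fish. Head kidney held 4.03, 5.49, 6.61, 1.53 and 3.42 CPM in bold fish, against 1.58, 2.01, 1.25, 1.22 and 1.46 CPM in shy fish. Groups overlapped in both tissues, with opposite signs of -0.47 (SE 0.16) in pituitary and 1.25 (SE 0.32) in head kidney, and the pituitary value was -0.31 without shy 1 and shy 2. Others with a more negative value in pituitary were the co-repressor TLE1 (-1.14 between tissues), SETBP1 (-1.01), TFPI2 (-1.07), SYPL1 (-0.98), the histone methyltransferase PRDM2 (-0.80), the immune-type receptor NITR3 (-1.91) and DLAgn_00237060 (-1.44). The difference between tissues was -0.53 for SYPL1, -0.49 for PRDM2 and -1.07 for NITR3 without pituitary shy 1 and shy 2.

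**Figure D3:**
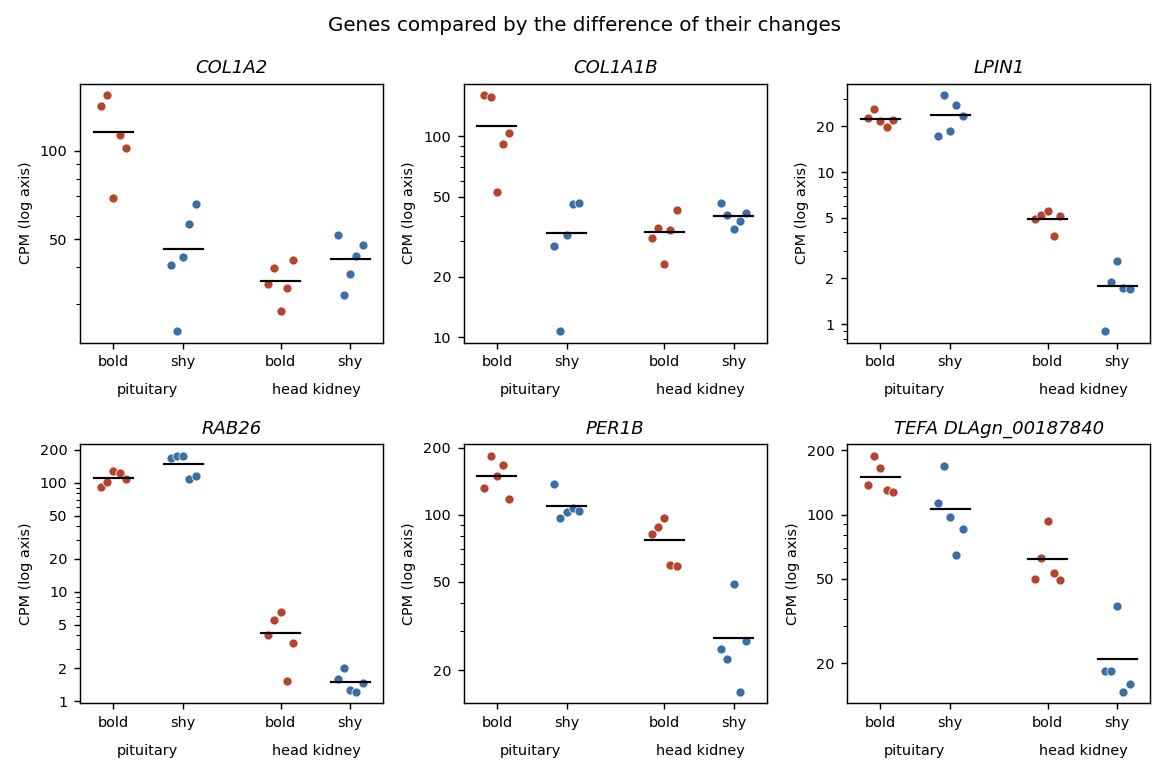
CPM on a log axis for 6 genes compared by the difference of their tissue values; each point is a library, bold left of shy, and the line is the group mean. The 2 collagens are apart in pituitary and overlap in head kidney, LPIN1, PER1B and TEFA are apart in head kidney and overlap in pituitary, and RAB26 overlaps in both.

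Genes with opposite signs were the fewest. ZNF524, a zinc finger gene, was the 1 gene of 13983 whose groups did not meet in either tissue with opposite directions. It was singled out after its values were seen. Groups were apart with bold higher for 115 genes in pituitary and 210 in head kidney, and with bold lower for 192 and 207. How many such genes unrelated tissues would give was not tested, so ZNF524 is given by value only. It had 16.1, 16.6, 17.7, 17.5 and 13.3 CPM in pituitary of bold fish, against 25, 20.4, 19.1, 19.4 and 20.5 CPM in pituitary of shy fish, and 4.15, 5.03, 3.81, 4.3 and 3.51 CPM in head kidney of bold fish, against 3.38, 2.96, 2.99, 2.86 and 3.35 CPM in head kidney of shy fish. The log2 difference was -0.38 (SE 0.15) in pituitary, -0.21 there without shy 1 and shy 2, and 0.42 (SE 0.18) in head kidney, and the difference between tissues -0.79 (SE 0.22), with adjusted p = 0.315 in edgeR. TMEM100, a membrane protein of the endothelium, had 150.4, 54.8, 148, 91.9 and 200.5 CPM in pituitary of bold fish, against 59.8, 62.4, 58.4, 73.5 and 86.7 CPM in pituitary of shy fish. Head kidney held 0.488, 0.674, 0.356, 0.623 and 0.474 CPM in bold fish, against 1.13, 1.27, 1.45, 0.973 and 1.08 CPM in shy fish. The head kidney groups were apart at levels near 1 CPM, and in pituitary bold 2 was the lowest library. TMEM100 had a log2 difference of 0.93 (SE 0.31) in pituitary and -1.14 (SE 0.33) in head kidney.

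DKC1, the pseudouridine synthase of the telomerase and small nucleolar RNA complexes, had 74.3, 79, 84.6, 119.9 and 80.4 CPM in pituitary of bold fish, against 27.1, 21.6, 105, 87.1 and 95.7 CPM in pituitary of shy fish. Head kidney held 86.4, 82.7, 76, 92.6 and 96.3 CPM in bold fish, against 119.8, 103, 106, 146 and 124 CPM in shy fish. The head kidney groups were apart, and shy 1 and shy 2 alone lay below all other pituitary libraries. Its pituitary difference was 0.85, and 0.03 without them. S8 had 0.84 in pituitary and -0.58 in head kidney, C5H22ORF28 0.50 and -0.44, and RHOA, a small GTPase of the actin skeleton, -0.27 and 0.28. Without shy 1 and shy 2 the pituitary difference was 0.36 for S8, 0.01 for C5H22ORF28 and -0.10 for RHOA, and the difference between tissues was 0.97 in place of 1.43 for S8 and 0.47 in place of 0.94 for C5H22ORF28.

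Genes of protein synthesis and respiration had opposite signs in the tissues, and here the pituitary value rested on shy 1 and shy 2. Of 55 ribosomal protein genes, 43 were positive in pituitary (median 0.49) and 1 in head kidney (median -0.31). In head kidney, 42 were lower in bold fish at an unadjusted p under 0.05 (5.56% of all genes) and 23 had groups apart, bold lower (1.48% of all genes). The interaction at an unadjusted p under 0.05 gave 34 with a more positive value in pituitary (8.12% of all genes). RPL34, of the large subunit, had 489, 580.1, 581, 684 and 578 CPM in pituitary of bold fish, against 375, 164, 664, 669 and 596 CPM in pituitary of shy fish. Head kidney held 571, 585, 639, 572 and 561 CPM in bold fish, against 782, 661, 753, 698 and 777 CPM in shy fish. The head kidney groups were apart, and in pituitary shy 1 and shy 2 alone were below all bold libraries. Its pituitary difference was 0.48, and -0.12 without them. The pituitary score was -0.04, 0.23, 0.34, 0.48 and 0.16 in bold fish, against -0.75, -1.69, 0.33, 0.51 and 0.42 in shy fish. Without shy 1 and shy 2 the pituitary median was -0.11, the sign found in head kidney. The interaction then gave 0 of the 55 members at an unadjusted p under 0.05. Of all 14192 genes tested in that setting only 464 reached that p, so few members would be looked for.

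Oxidative phosphorylation genes did the same by value. Of 70, 61 were positive in pituitary (median 0.50) and 4 in head kidney (median -0.21), where 27 were lower in bold fish at an unadjusted p under 0.05 (5.56% of all genes). Without shy 1 and shy 2 the pituitary median was -0.13. Of 70 mitochondrial ribosome genes, 44 were positive in pituitary (median 0.09, and -0.16 without those libraries) and 3 in head kidney (median -0.25). Of 45 proteasome genes, 29 were positive in pituitary (median 0.14, and -0.10 without them) and 3 in head kidney (median -0.17). In head kidney the summed level of erythrocyte markers, mostly globin, was 138149 to 191083 CPM in bold fish, against 99009 to 269205 CPM in shy fish, and its part in these values was not tested. Head kidney shy 4 differed from the other shy head kidneys. Erythroid genes took 12.4% of its counts, against 20.3% to 24.3%, and proteasome genes 0.448%, against 0.241% to 0.268%. Without it the head kidney median of mitochondrial ribosome genes was -0.16.

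**Figure D4:**
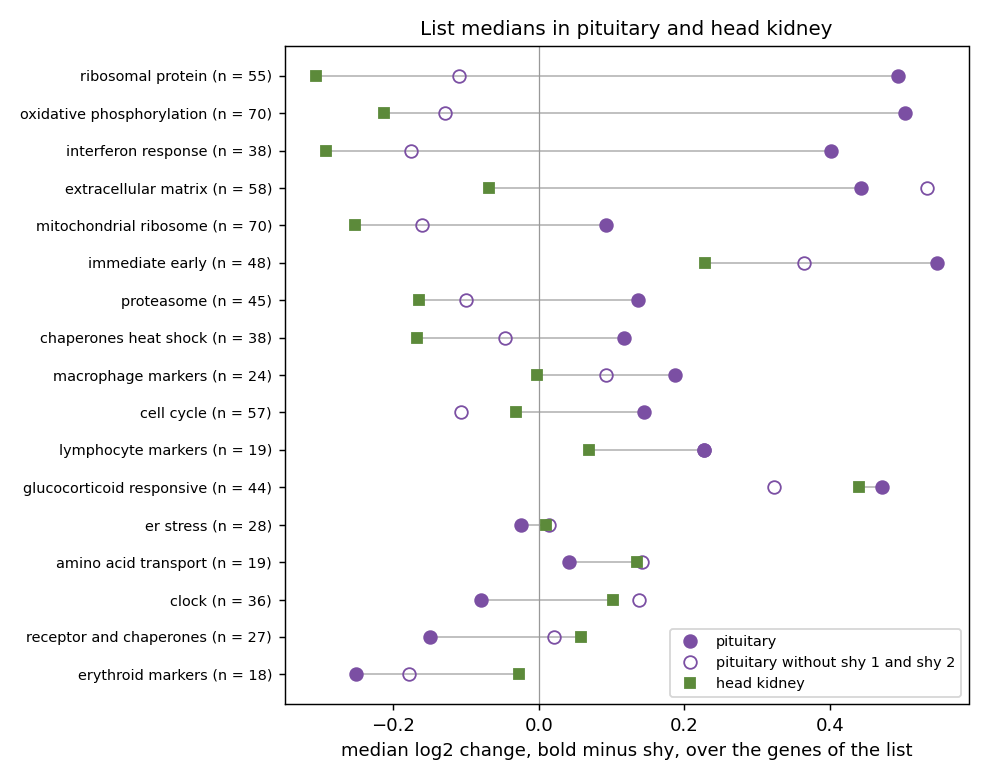
Median log2 difference, bold minus shy, for 17 gene lists. Filled circles are pituitary, open circles pituitary without shy 1 and shy 2, and squares head kidney. Open circles compare females only. The open circles of the ribosomal protein, oxidative phosphorylation and interferon lists lie on the negative side with the squares, at -0.11, -0.13 and -0.18. That of the matrix list is at 0.53, with bold 1 and bold 4 as the only bold pituitaries compared.

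Interferon-response genes also had medians of opposite sign, and the pituitary median was negative without bold 5. Of 38, 32 were positive in pituitary (median 0.40) and 7 in head kidney (median -0.29), where 12 were lower in bold fish at an unadjusted p under 0.05 (5.56% of all genes) and 2 higher (5.65% of all genes). The 1 member with groups apart in both tissues is GBP, counted here as a guanylate-binding protein, which the count table does not settle. The pituitary score was -0.33, -0.16, -0.58, -0.30 and 2.04 in bold fish, against 0.08, -0.33, -0.25, -0.12 and -0.06 in shy fish, so bold 5 stood far above the rest. Without bold 5 the pituitary median was -0.25. Without shy 1 and shy 2 it was -0.18, but bold 5, a male, then no longer enters the difference. In head kidney the score was 0.02, -0.22, -0.26, -0.10 and -0.33 in bold fish, against 0.07, -0.50, 0.34, 0.22 and 0.77 in shy fish, and the groups overlapped. CMPK2, an interferon-induced mitochondrial kinase, had 1.42 (SE 2.02) in pituitary and -1.37 (SE 0.43) in head kidney.

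**Figure D5:**
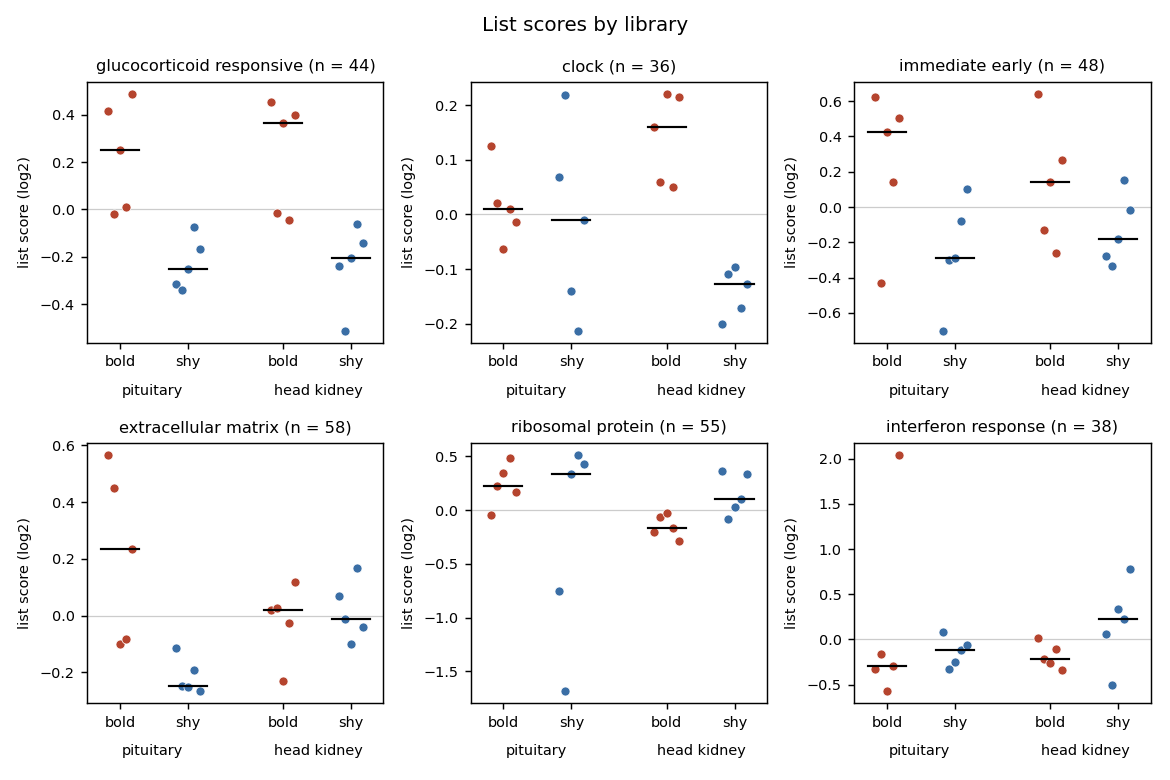
List score by library on the log2 scale, bold left of shy within each tissue, with the line at the group median. The clock score is apart in head kidney, pituitary shy 1 and shy 2 lie lowest for ribosomal protein genes at -0.75 and -1.69, and pituitary bold 5 lies highest for interferon genes at 2.04.

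The remaining lists are given by their medians. Members of the glucocorticoid receptor complex had a median of -0.15 in pituitary and 0.06 in head kidney over 27 genes, with the coactivator NCOA1 at 1.12 and 1.13. NCOA1 had 2.04 and 1.8 CPM in pituitary shy 1 and shy 2. The other shy pituitaries held 5.66 to 6.47 CPM and the bold ones 5.56 to 11.6 CPM. Chaperones and heat shock genes gave 0.12 in pituitary and -0.17 in head kidney (38 genes), cell cycle genes 0.14 and -0.03 (57 genes), and genes of endoplasmic reticulum stress -0.02 and 0.01 (28 genes). These pituitary medians changed sign without pituitary shy 1 and shy 2. They were then -0.05 for chaperones, -0.11 for cell cycle genes, 0.01 for endoplasmic reticulum stress and 0.02 for the receptor complex. The head kidney median of chaperones was -0.07 without head kidney shy 4. Amino acid transporters gave 0.04 and 0.13 (19 genes), with SLC43A2, a transporter of neutral amino acids, at 0.04 in pituitary and 0.67 in head kidney. SLC43A2 had 135 and 154 CPM in pituitary shy 1 and shy 2, against 61.1 to 88.2 CPM in the other shy pituitaries. Bold pituitaries held 87.5 to 156 CPM. Of the blood and immune markers, erythroid genes gave -0.25 and -0.03 (18 genes), lymphocyte genes 0.23 and 0.07 (19 genes) macrophage genes 0.19 and a value just under 0 (24 genes) and neutrophil genes 0.11 and -0.04 (11 genes). Of the markers of other tissues, muscle genes gave 0.28 in pituitary and -0.15 in head kidney (10 genes), and liver and plasma genes 0.74 and 0.01 (3 genes). Genes of corticosteroid synthesis gave -0.07 and -0.11 (9 genes). TSHB, STAR, MC2R, CRHR1 and NPAS4 were not tested in both tissues and have no comparison here.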

How the data were processed

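Poly(A) RNA of pituitary and head kidney was read as single ends of 50 nt from stranded libraries on 3 lanes, per the labels' protocols. Tools listed in the submitters' processing notes, without their order, are featureCounts 1.6.2, TopHat2 2.1.1, SAMtools 1.5, Bowtie2 2.2.9, FastQC and bcl2fastq 2.20. What is not given in the sources used here is build, annotation and counting strand. The authors deposited raw counts of reads per gene for 26719 identifiers, 5479 of them without a symbol. Symbols are those of the count table, since 0 identifiers tested in both tissues matched the RefSeq gene table. Columns were tied to samples by title, and 0 of 90 pairs of libraries within a tissue held identical counts.

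The bold minus shy difference of a tissue was fitted with edgeR 4.0.16 in R 4.3.3 (robust quasi-likelihood, TMM factors, filterByExpr with a minimum count of 10), with sex as covariate. The difference between tissues came from 1 fit of the 20 libraries with sex within tissue, over the 13983 genes that passed the filter in both (52.3% of those deposited); 3119 genes passed in pituitary alone and 1758 in head kidney alone. For a difference of the same or of opposite sign in both tissues, the larger of both p values was used. P values were two-sided and adjusted by Benjamini-Hochberg over all genes tested. SE is the standard error of a log2 difference. CPM uses TMM factors within a tissue and is not scaled to gene length, so levels are not compared between genes. Groups are apart where every library of one lies above every library of the other. List scores use log2(CPM + 0.5). Counting error is not small for genes of a few CPM or less, above all in the libraries of lowest total count.

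Named are the 10 genes of smallest p in each direction for the interaction and for the same sign (identifiers without a symbol at most 2 per direction), the 5 per orientation for opposite signs, list members with groups apart in both tissues, list members of largest difference, and a few genes fixed by name. The genes, lists and tests were chosen with earlier results of these data known. Alternatives were other size factors and filters, no sex term, a non-robust fit, DESeq2 1.42.0, voom (limma 3.58.1), and leaving out libraries. Simulated data were used to test the scripts. Figures used matplotlib 3.10.9 in Python 3.11.15.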

Additional observations from a re-analysis of the deposited data

Results flagged for a closer look

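A library was listed here where its gap to the nearest library of its group exceeded 0.71 of the group's range. Of 140 groups of 5 examined, 13 did so, and chance gives about 1 in 20. In pituitary, STK35 had 10.6 CPM in shy 4, against 17.1 to 19 CPM in the other shy libraries, and FKBP5 had 156 CPM in shy 3, against 23.1 to 43.1 CPM. COL1A1 had 12.6 CPM in shy 2, against 42.9 to 55.1 CPM in the other shy libraries. PER1B had 137 CPM in shy 1, against 97.1 to 107 CPM, and ZNF524 had 25.0 CPM in shy 1, against 19.1 to 20.5 CPM. Among bold pituitaries, DLAgn_00202850 had 20.4 CPM in bold 4, against 31.5 to 33.6 CPM in the others, and DKC1 had 119.9 CPM in bold 4, against 74.3 to 84.6 CPM. The interferon score was 2.04 in pituitary bold 5, against -0.58 to -0.16 in the other bold pituitaries.

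In head kidney, NRP1A had 2.08 CPM in bold 1, against 0.966 to 1.13 CPM in the other bold libraries, and DLAgn_00265390 had 0.203 CPM in bold 3, against 0 to 0.0566 CPM. FKBP5 had 136 CPM in shy 3, against 15.3 to 36.1 CPM in the other shy libraries, TEFA (DLAgn_00187840) had 37.4 CPM in shy 3, against 14.8 to 18.5 CPM, and SSH1 had 11.7 CPM in shy 4, against 15.2 to 16.1 CPM. ZNF524 was lower in every bold pituitary and higher in every bold head kidney than in any shy library of the tissue. Its difference between tissues was -0.79 on the log2 scale, and the edgeR test of that difference gave an adjusted p of 0.315, above the threshold.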

How the results depend on the processing

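No paired analysis was run because the labels do not tie the libraries to fish. The interaction test therefore did not use that both tissues come from the same fish, and how this affects its counts was not tested. The interaction passed for 0 genes under the other edgeR settings and voom, for 18 genes in DESeq2 (12 more positive in pituitary), and for 0 to 3 when single libraries were left out, with 3 without head kidney bold 4 (DLAgn_00202850, APOC1 and RAB26). The same sign in both tissues passed for 6 genes in DESeq2 (KIAA1737, STK35, GBP, NR1D2 and FKBP5 higher, DLAgn_00265390 lower) and for 0 in each edgeR fit, and opposite signs for 0 in each. Pearson's r of 0.167 was 0.0941 with no filter, 0.0367 for genes of at least 10 CPM, 0.314 without pituitary shy 1 and shy 2, and 0.0710 to 0.247 without single libraries, lowest without pituitary bold 1. The 74 genes of opposite sign at an unadjusted p under 0.05 became 28 with no sex term, 135 in DESeq2, 45 in voom, 1 at p under 0.01, 7 without pituitary shy 1 and shy 2, and 15 to 228 without single libraries (lowest without pituitary shy 2, highest without pituitary bold 1). The 257 of the same sign became 144 in voom, 31 at p under 0.01, 101 without shy 1 and shy 2, and 149 to 318 without single libraries, lowest without head kidney bold 1. The 9 genes apart in both tissues, same direction, became 15 with CPM of the total count and 35 without shy 1 and shy 2. Without single libraries they numbered 8 to 27, and the 1 gene apart in opposite directions became 1 to 4. Having every bold library beyond every shy one is easier to meet with fewer libraries. The 1 called value, DLAgn_00202850 in head kidney, kept its sign under all alternatives run. The interaction at an unadjusted p under 0.05 held 464 genes without shy 1 and shy 2, against 1922. That setting compares only females in pituitary, so its counts are not the effect of those libraries alone. Without pituitary bold 4 the pituitary test passed for 73 genes. The causes of these shifts were not tested. With 5 libraries per group and a depth down to 3808645 counts, differences in genes of a few CPM or less could not be measured closely.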
